A study of Mus musculus with 37 samples.

Results

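The 10 genes described here encode heat shock proteins and the factor that switches them on: the HSP70 proteins Hspa1a, Hspa1b and Hspa8, the HSP110 protein Hsph1, the J-domain co-chaperone Dnajb1, the cytosolic HSP90 proteins Hsp90aa1 and Hsp90ab1, the mitochondrial chaperonin pair Hspd1 and Hspe1, and the transcription factor Hsf1. They were chosen by gene symbol, and all 10 were listed in each of the 4 RNA-seq tables, which held 25053, 19033, 24305 and 15855 genes. The tables covered 31 libraries of C57BL/6 mouse oocytes and 2-cell embryos, and 6 further libraries measured open chromatin by ATAC-seq.

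Chaperones of the HSP70 family bind unfolded stretches of other proteins and release them in a cycle driven by ATP. J-domain proteins such as Dnajb1 deliver clients to HSP70 and start that cycle, HSP110 proteins such as Hsph1 exchange the nucleotide, and HSP90 takes over clients that need late folding steps. Hsf1 binds heat shock elements, repeats of a short GAA unit in alternating orientation, and switches on these genes after stress. A mouse oocyte that has finished growing has silenced its genome and lives on stored RNA, which is degraded during maturation and after fertilisation or activation. Hspa1a and Hspa1b are known as genes that the embryo transcribes very early, with the onset of its own genome activity.

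The perturbations were compared, each within its own table. ZH KO oocytes carried Hira fl/fl with Zp3-Cre and lacked maternal Hira, a chaperone of the histone variant H3.3, and CabZ KO oocytes and embryos carried Cabin1 fl/fl with Zp3-Cre and lacked maternal Cabin1, a subunit of the Hira complex. Their controls, ZH Het and CabZ Het, kept 1 functional allele and also carried Zp3-Cre, which acts in growing oocytes and not in the follicle cells around them. GV (germinal vesicle) oocytes of ZH and of CabZ and 2-cell embryos of CabZ were sequenced in 4 libraries per group. Whether the CabZ embryos arose by fertilisation or by activation, and so whether they could carry a paternal Cabin1 allele, was not given in the sources used here. In the last comparison wild-type oocytes were injected with RNA for GFP (4 libraries) or Zscan4d (3 libraries, labelled Zscan4 OE), matured and activated without sperm, and the resulting parthenogenetic 2-cell embryos were sequenced. The females had been primed with PMSG, oocytes were pooled for a library according to the study's methods although the labels speak of individual cells, and nothing ties a library to a single animal, so that p values measure the spread between these libraries.

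The libraries held 5806432 to 21767452 reads on genes, with the fewest (5806432 to 6329738) in CabZ KO 2-cell embryos and 7935687 to 8219825 in CabZ Het 2-cell embryos. Reads on Cabin1 fell from 117 to 209 per library in CabZ Het oocytes to 14 to 57 in CabZ KO oocytes, and from 215 to 442 to 44 to 125 at the 2-cell stage. Reads on Hira did not separate the groups, with 2 to 14 per library in ZH Het and 0 to 13 in ZH KO oocytes. Zscan4d was not higher in the 2-cell embryos from Zscan4d-injected oocytes, at 70.3 to 84.3 FPKM in the libraries labelled Zscan4 OE and 69.4 to 149 FPKM in GFP embryos. GFP embryos thus held this message without its injection. The paper reports higher Zscan4 after injection by qRT-PCR, immunofluorescence and western blot, relative to uninjected oocytes. All 12 oocyte markers were present in every table. Their summed level was 3441 to 3801 FPKM in ZH Het and 2064 to 2668 FPKM in ZH KO oocytes, 4625 to 5300 FPKM in CabZ Het and 4280 to 4406 FPKM in CabZ KO oocytes, but 152 to 238 FPKM in CabZ Het against 462 to 1048 FPKM in CabZ KO 2-cell embryos. Levels are given as FPKM, fragments per kilobase of gene span scaled to the size of the library, and the values are shares of a library, so that fewer RNA molecules per oocyte and a smaller part of the total cannot be told apart.

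The 2 stress-inducible HSP70 genes lie side by side on chromosome 17 (GRCm38), Hspa1a at chr17:34969190-34972156 and Hspa1b at chr17:34956436-34959238, both on the minus strand and both without introns. Their upstream sequences are shown because they are nearly one sequence: of the 250 bases before each start site, 3 differ. The RefSeq promoter tables of GRCm38.p6 held 6 of the 10 genes, and the strands below are read from chr17:34972157-34972406 for Hspa1a and from chr17:34959239-34959488 for Hspa1b. Capitals mark an inverted pair of GAA units (GAANNTTC, first base at -104) and a CCAAT box on the other strand (ATTGG, first base at -67).
Hspa1a: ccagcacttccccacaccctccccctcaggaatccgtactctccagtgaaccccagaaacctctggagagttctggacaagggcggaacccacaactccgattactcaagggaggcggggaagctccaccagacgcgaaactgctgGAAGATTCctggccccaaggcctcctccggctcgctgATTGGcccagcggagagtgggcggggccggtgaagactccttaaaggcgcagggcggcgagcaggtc
Hspa1b: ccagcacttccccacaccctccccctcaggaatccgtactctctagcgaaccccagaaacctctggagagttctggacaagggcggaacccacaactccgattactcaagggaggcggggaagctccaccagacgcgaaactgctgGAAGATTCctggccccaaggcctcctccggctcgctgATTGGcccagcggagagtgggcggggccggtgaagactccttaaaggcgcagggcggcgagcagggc
GAANNTTC was present in 7.86% and CCAAT on either strand in 37.4% of the 32851 promoters of the table, each taken from 250 bases before to 50 bases after a start site. TATAAA on either strand, found in 13.6%, was in none of the promoters listed for these 6 genes. A match of letters is a description and not a binding site.

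The mitochondrial pair is arranged head to head on chromosome 1, Hspd1 at chr1:55077835-55088243 on the minus strand and Hspe1 at chr1:55088132-55091307 on the plus strand, and the 2 gene spans overlap by 112 bases. The stretch chr1:55088053-55088082 (plus strand, -95 to -66 of Hspe1, inside a first exon of an annotated Hspd1 transcript) is shown because it is shared by both promoters and because its capitals mark 4 units in alternating orientation. The 3-unit forms GAANNTTCNNGAA and TTCNNGAANNTTC, which are reverse complements of each other and overlap here, were present in 0.603% of all promoters. Hsph1, at chr5:149614287-149636376 on the minus strand, also held a 3-unit form downstream of its start sites, and a single TTCNNGAA, a letter pattern of 8.52% of promoters, is in capitals in chr5:149636352-149636381 (minus strand, overlapping the first exon of an annotated Hsph1 transcript).
Hspe1: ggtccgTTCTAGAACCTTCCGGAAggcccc
Hsph1: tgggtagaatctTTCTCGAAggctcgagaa
Of the 2 promoters listed for Dnajb1 (chr8:83608193-83612653, plus strand) 1 held CCAAT and none held GAANNTTC or TTCNNGAA. The other genes lie at chr9:40800984-40810087 (Hspa8, plus strand, with the small nucleolar RNA genes Snord14c, Snord14d and Snord14e inside it), chr12:110690605-110702728 (Hsp90aa1, minus strand), chr17:45567775-45573271 (Hsp90ab1, minus strand) and chr15:76477422-76501913 (Hsf1, plus strand).

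Messages of Hsp90aa1 and Hspa8 were the most abundant of the set in oocytes, and the inducible HSP70 genes were the least abundant. Between genes, levels were compared per exonic length. In CabZ Het oocytes the order on that scale was Hsp90aa1 (442 ± 77.1 FPKM, SD, n = 4), Hspa8 (191 ± 37.0), Hspe1 (90.8 ± 6.83), Dnajb1 (79.6 ± 10.3), Hsp90ab1 (54.1 ± 12.4), Hspd1 (15.9 ± 3.84), Hsph1 (8.40 ± 1.85), Hsf1 (7.92 ± 0.580), Hspa1b (1.10 ± 0.155) and Hspa1a (0.142 ± 0.182). The ranges of Hspe1 and Dnajb1, of Dnajb1 and Hsp90ab1, and of Hsph1 and Hsf1 overlapped, and the other neighbours in the order stood apart. ZH Het oocytes placed Hspe1, at 37.2 ± 5.98 FPKM per exonic length, below Hsp90ab1 at 53.6 ± 3.90, and left Hspa1b and Hspa1a last at 0.899 ± 0.448 and 0.176 ± 0.163. All 10 genes together took 0.355% ± 0.0258 of the reads of ZH Het and 0.328% ± 0.0539 of those of CabZ Het oocytes.

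**Figure D1:**
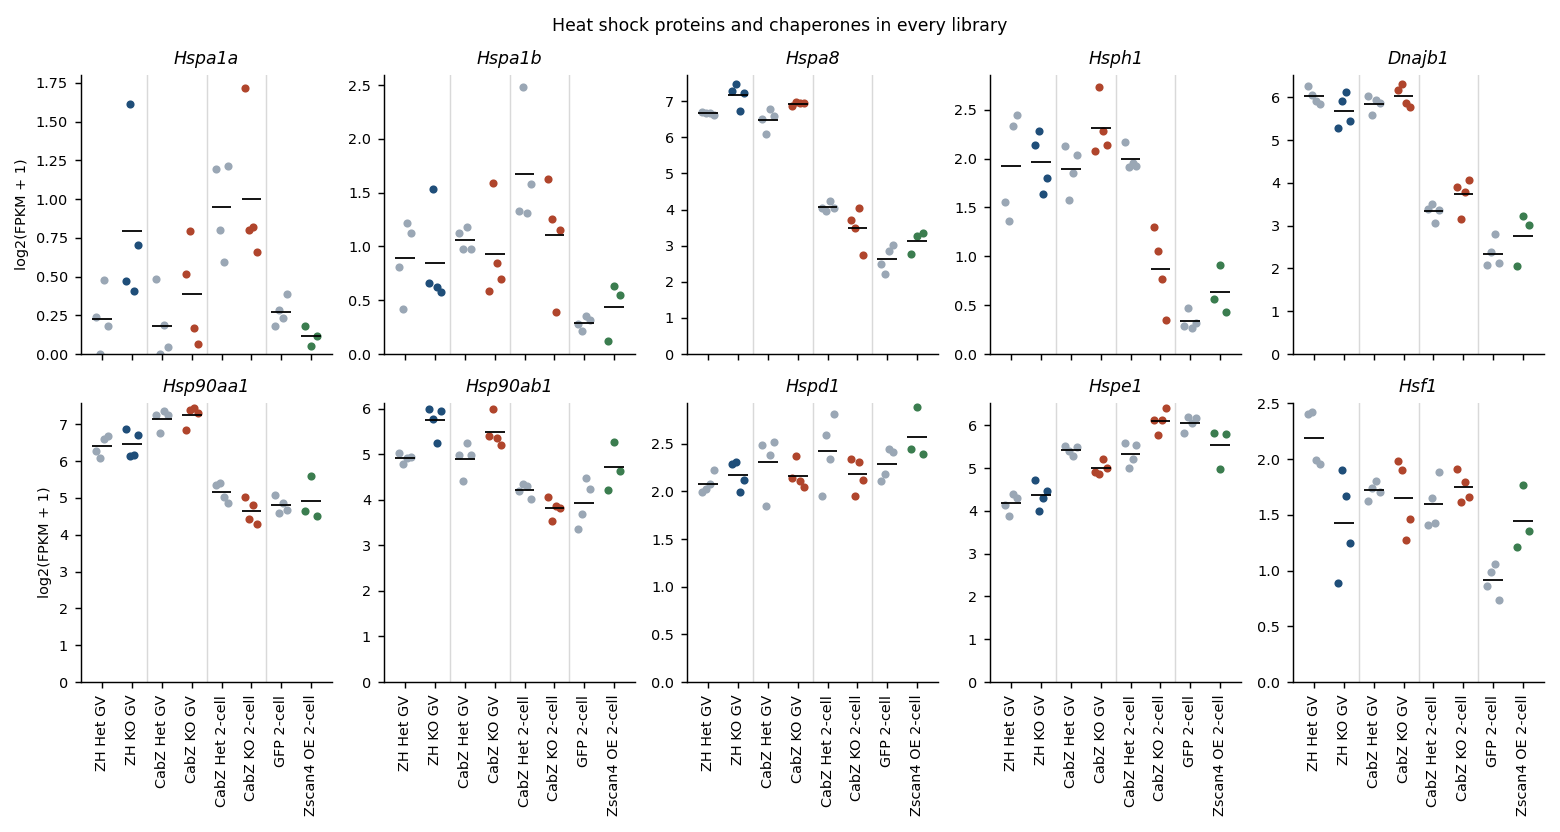
FPKM over the gene span of each of the 10 genes in every RNA-seq library, on a log axis, by group. Hsp90aa1 and Hspa8 are at the top of the oocyte groups, at 66.9 FPKM or more in every library, and Hspa1a stays at or under 2.29 FPKM in every library of the 4 tables.

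In 2-cell embryos the order was different. CabZ Het embryos had Hsp90aa1 (108.5 ± 19.5 FPKM per exonic length) and Hspe1 (86.1 ± 16.8) first, with overlapping ranges, then Hspa8 (33.7 ± 3.09) and Hsp90ab1 (32.2 ± 3.35), also overlapping. Hspd1, Dnajb1, Hsph1 and Hsf1 followed at 17.7, 12.7, 9.07 and 7.06, each overlapping its neighbour, and Hspa1b (2.39 ± 1.48) and Hspa1a (0.966 ± 0.405) were again the lowest. In GFP-injected embryos Hspe1 was first at 141.6 ± 16.2, ahead of Hsp90aa1 at 83.4 ± 12.9. The 10 genes took 0.101% ± 0.00657 of the reads in CabZ Het and 0.113% ± 0.00655 in GFP embryos.

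The GV and 2-cell tables of CabZ had been normalised separately, so their levels are set side by side without a test. Of the 10 genes, 4 had every CabZ Het 2-cell library below every CabZ Het oocyte library and 2 had every 2-cell library above. Across all genes averaging 1 FPKM or more at 1 stage or both these shares were 36.8% and 36.7%. Hspa1a, 1 of the 2, averaged 0.142 FPKM in oocytes and 0.966 FPKM in embryos and so is not among those genes. Hspe1, among the abundant messages of the oocyte, overlapped between the stages (42.2 ± 3.17 and 39.9 ± 7.79 FPKM). Of the 4 lower genes Dnajb1 went from 57.2 ± 7.39 to 9.12 ± 1.22 FPKM (6.27 times lower), Hspa8 from 90.4 ± 17.5 to 15.9 ± 1.46 (5.68 times), Hsp90aa1 from 143 ± 25.0 to 35.2 ± 6.33 (4.07 times) and Hsp90ab1 from 29.5 ± 6.74 to 17.6 ± 1.83 (1.68 times). The 2 higher genes were the inducible HSP70 pair. Hspa1a was at 0.400, 0, 0.136 and 0.0325 FPKM in the 4 oocyte libraries (0 to 15 reads, where a count of 0 allows up to 3 reads) and at 1.29, 0.745, 0.507 and 1.32 FPKM in the embryos (12 to 32 reads). Hspa1b was at 1.18, 0.964, 1.27 and 0.965 FPKM in oocytes and at 1.51, 4.58, 1.48 and 1.99 FPKM in embryos. Both genes were above their oocyte range in each embryo library, by 6.79 and 2.18 times in the means, and both remained rare.

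In CabZ KO Hspa8, Dnajb1, Hsp90aa1, Hsp90ab1 and Hsph1 were lower at the 2-cell stage than in oocytes, 1 gene (Hspe1, 31.0 to 68.8 FPKM, 2.22 times) was higher, and 4 overlapped, with 36.1% of all genes lower and 32.9% higher. Hspa8 went from 121 ± 4.14 to 10.9 ± 4.12 FPKM and Hsph1 from 4.04 ± 1.12 to 0.877 ± 0.509 FPKM. The Hspa1 pair did not separate the stages in CabZ KO, where Hspa1a was at 0.433, 0.732, 0.124 and 0.0444 FPKM in oocytes and 2.29, 0.739, 0.768 and 0.577 FPKM in embryos. Whether the step between stages differed between CabZ Het and CabZ KO was not tested.

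**Figure D2:**
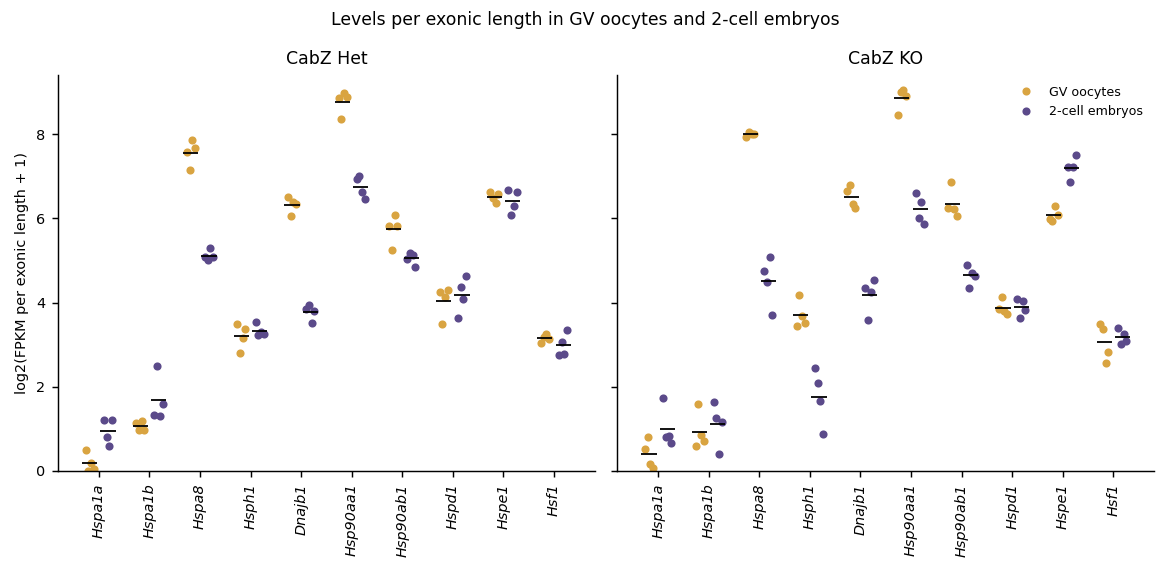
FPKM per exonic length of the 10 genes in CabZ GV oocytes and CabZ 2-cell embryos, on a log axis, for CabZ Het and CabZ KO. Each point is 1 library, from tables normalised apart. In CabZ Het the points of Hspa8, Dnajb1, Hsp90aa1 and Hsp90ab1 lie lower in embryos than in oocytes and those of Hspa1a and Hspa1b lie higher.

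Counts for Hspa1a and Hspa1b carry an uncertainty of their own. Of the stretches of the length of a read (150 bases) in the Hspa1a transcript, 38.1% were also found in a Hspa1b transcript, and 40.5% of those of Hspa1b in Hspa1a, whereas none of either was found in Hspa8. Hspa1a also overlaps, over 2225 bases, the antisense gene Gm20481, and the library kit does not mark strand. Summed over both genes, the pair stood at 1.25 to 6.55 RPM (reads scaled to the reads on genes) in ZH Het and 2.70 to 4.49 in CabZ Het oocytes, 5.64 to 15.0 in CabZ Het embryos and 1.51 to 2.40 in GFP-injected embryos.

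Hsp90ab1 and Hspa8 were higher and Hsf1 was lower in oocytes without maternal Hira, each by less than a fold of 2 on the log2(FPKM + 1) scale. In ZH KO oocytes Hsp90ab1 was 1.83 times and Hspa8 1.46 times as high as in ZH Het, and Hsf1 was at 0.491 of the control. A gene was called changed at an adjusted p under 0.05 (limma on log2(FPKM + 1), Benjamini-Hochberg over the 5792 genes averaging 1 FPKM or more) together with a fold change above 2, the study's thresholds. Of the 8 chaperone genes above that level, 0 were called, against 17.7% of all genes. An adjusted p under 0.05 was found for 3, against 51.9%, and an unadjusted p under 0.05 for 3. For unadjusted p the share of all genes was not worked out, here and below, so such counts are not read as an excess. The groups did not overlap in 3 of the 8, against 46.9% of all genes. The median log2 difference was 0.08 for the 8 genes and -0.04 for all genes.

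Hsp90ab1, the constitutive cytosolic HSP90, was at 31.5, 26.4, 29.2 and 29.8 FPKM in ZH Het and 62.2, 54.0, 36.9 and 60.8 FPKM in ZH KO oocytes. All 4 KO libraries were above all 4 controls, with a log2 difference of 0.82 ± 0.17 (SE, limma adjusted p = 0.0034). Hsp90aa1, the inducible HSP90 that oocytes hold in large amounts, was at 75.7, 66.9, 95.7 and 102 FPKM in ZH Het and 116, 69.2, 70.6 and 104 FPKM in ZH KO, and the groups overlapped (log2 difference 0.06 ± 0.21, limma adjusted p = 0.82). The ratio of Hsp90aa1 to Hsp90ab1 within a library was taken per exonic length, as were all other ratios between genes given below. It was 4.04 to 5.76 in ZH Het and 2.16 to 3.22 in ZH KO, without overlap. Over 12 such ratios tested (3 gene pairs in 4 comparisons) this gave a two-sided exact permutation p = 0.0286, the smallest that 4 against 4 libraries allow, and an adjusted p = 0.0857 (Benjamini-Hochberg).

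Hspa8, the constitutive HSP70, was at 103, 102, 100 and 96.6 FPKM in ZH Het and 155, 177, 106 and 149 FPKM in ZH KO. Each KO library was above each control, by 0.52 ± 0.16 on the log2 scale (limma adjusted p = 0.021). Setting the libraries to a common median moved all log2 differences by -0.148. Hspa8 then had a limma adjusted p = 0.079 at a difference of 0.37. Scaling to the reads of the table moved differences the other way, by 0.152 for Hsp90aa1. Hsf1 was at 4.28, 4.36, 2.98 and 2.87 FPKM in ZH Het and 0.853, 2.73, 2.17 and 1.37 FPKM in ZH KO oocytes. Its 4 KO libraries lay below the 4 controls (log2 difference -0.77 ± 0.22, limma adjusted p = 0.017), and with no filter on low genes its adjusted p was 0.058. Leaving out single libraries took the adjusted p of Hsf1 to 0.052 without ZH Het replicate 1 and 0.053 without ZH Het replicate 2, and that of Hspa8 to 0.055 without ZH KO replicate 4.

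Dnajb1, which pairs with HSP70, was at 76.2, 64.9, 59.5 and 56.7 FPKM in ZH Het and at 37.8, 59.5, 68.3 and 42.6 FPKM in ZH KO. Its groups overlapped, with a log2 difference of -0.33 ± 0.20 (limma adjusted p = 0.18). For Hsph1, Hspd1 and Hspe1 the log2 differences were 0.04 ± 0.26, 0.09 ± 0.12 and 0.19 ± 0.18, and the 95% intervals were -0.55 to 0.63, -0.18 to 0.37 and -0.21 to 0.59. These intervals leave room for changes of either sign.

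Hspa1a was below 1 FPKM on average and so outside the fit. It was at 0.182, 0, 0.391 and 0.131 FPKM (7, 0, 19 and 8 reads) in ZH Het and at 0.385, 2.06, 0.324 and 0.627 FPKM (18, 97, 13 and 25 reads) in ZH KO oocytes. The groups overlapped, ZH KO replicate 2 was the highest, and the difference of the means was 0.672 FPKM (two-sided exact permutation test, p = 0.0857). Hspa1b did not follow it, at 0.756, 0.333, 1.33 and 1.18 FPKM in ZH Het and 0.576, 1.89, 0.545 and 0.487 FPKM in ZH KO (exact permutation p = 0.943). Hspa1a made up 0% to 23.7% of the reads of the pair in ZH Het and 38.6% to 57.7% in ZH KO. This share was chosen after its values were seen and was therefore not tested.

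Markers of other states moved with these groups. Markers of the 2-cell stage summed to 73.9 to 109 FPKM in ZH Het and 286 to 430 FPKM in ZH KO. Of 13 listed, 4 averaged 1 FPKM or more in ZH Het and 8 in ZH KO, so some passed the filter only through ZH KO. Called higher were 6 of the 7 that passed the filter, and 6 of 13 with no filter. Of 12 oocyte markers 3 were called lower and 1 higher, where 7.20% and 10.5% of all genes were. Of 18 granulosa and cumulus markers 16 were listed and none averaged 1 FPKM over both groups, although 1 did so in ZH KO (Inha). Their sum was 0.526 to 0.822 FPKM in ZH Het and 2.06 to 3.28 FPKM in ZH KO, with Inha at up to 1.53 FPKM, Inhbb and Ptx3 at 0 in every ZH Het and Foxl2 and Has2 at 0 in every ZH KO library. The part of these markers in the results on ZH KO was not tested.

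Over the 71 genes tested in 10 lists of partners of these chaperones, 36 had a limma adjusted p under 0.05 in ZH KO oocytes, against 51.9% of all genes. Among these lists, endoplasmic reticulum folding genes were the ones with the lowest median. Of 14 tested, 4 were called lower and 1 higher, where 7.20% and 10.5% of all genes were, and the median log2 difference was -0.71. With the values scaled to the reads of the table, calls went to 2 lower and 1 higher of the 14, and a filter of 5 FPKM left 6 genes with 1 called lower. Creld2, an oxidoreductase of that compartment, went from 37.4 to 8.84 FPKM (-1.99 ± 0.21, limma adjusted p = 7.1e-05), and the disulfide isomerase Pdia4, the J-domain protein Dnajc3 and Sdf2l1 fell by 1.15, 1.02 and 1.02 on the log2 scale. Dnajb9, another J-domain protein of the endoplasmic reticulum, rose by 1.58, and its HSP90, Hsp90b1, was at 8.06 FPKM in ZH Het and 14.5 FPKM in ZH KO (0.77 ± 0.17, limma adjusted p = 0.0053). Of 17 co-chaperones that exchange HSP70 nucleotide or serve HSP90, Stip1, which links HSP70 to HSP90, and Nudc were called lower (-1.06 and -1.17) and Cacybp higher (1.08). Cacybp, at 0.433 FPKM in ZH Het and 2.03 FPKM in ZH KO, passed the filter only through ZH KO. Of 17 J-domain genes, Dnajb4 and Dnajc30 were also called lower (-1.22 and -1.06), which with Dnajc3 and Dnajb9 made 3 lower and 1 higher. Scaled to the reads of the table, J-domain calls were 1 lower and 3 higher, and under the common median 4 lower and 1 higher. Calls in the co-chaperone list were then 1 lower and 1 higher, and 3 lower and none higher, in the same order. Of 13 cytosolic chaperonin and prefoldin genes and 6 mitochondrial folding genes none was called. Those 2 lists held 5 and 1 genes with an adjusted p under 0.05, among them Pfdn4 (-0.88), Cct5 (-0.76), Pfdn2 (0.57) and Clpp (0.30). Of 4 other HSP70 and HSP110 genes none was called, and Hspa4 and Hspa14 had log2 differences of -0.50 and -0.43 (limma adjusted p = 0.0070 and 0.025). Hspb1, the single small heat shock protein gene tested, rose from 2.65 to 11.6 FPKM (1.77 ± 0.21, limma adjusted p = 0.00015). Of 2 heat shock factors and regulators none was called, with Hsbp1, a binding protein of heat shock factors, at 0.40 ± 0.14 (adjusted p = 0.036), and of 12 genes that somatic cells induce on heat shock, 2 were called in each direction.

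**Figure D3:**
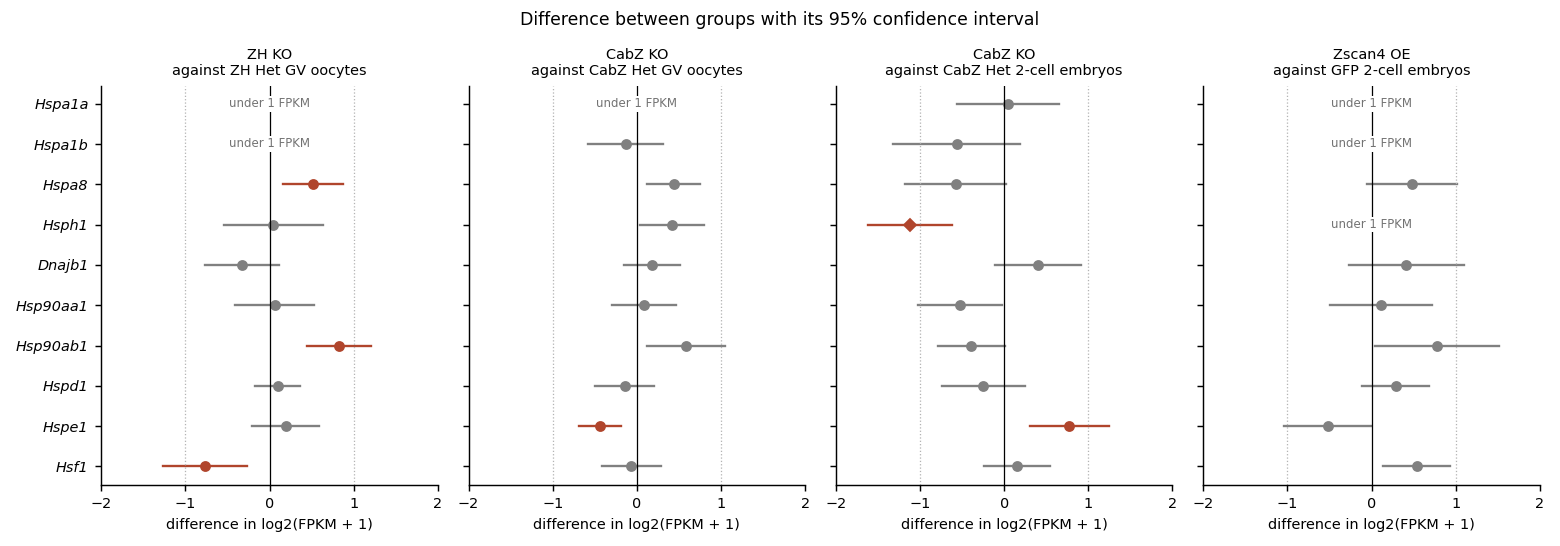
Log2 difference of FPKM + 1, KO minus Het or Zscan4 OE minus GFP, for each of the 10 genes in the 4 comparisons, with 95% intervals from limma, and genes under a mean of 1 FPKM left without a value. Hsp90ab1 and Hspa8 lie to the right of 0 in both oocyte comparisons (0.82 and 0.52 in ZH, 0.59 and 0.44 in CabZ) and Hsph1 lies farthest to the left, at -1.12, in CabZ 2-cell embryos.

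In oocytes without maternal Cabin1 none of the 9 genes averaging 1 FPKM or more differed by a fold of 2. Hspe1 was lower in CabZ KO at 0.736 of the control level, Hspa8 was 1.34 times and Hsp90ab1 1.52 times as high, and only Hspe1 had an adjusted p under 0.05. Of 9 genes tested with limma 0 were called, against 2.90% of 6339 genes, and 1 had an adjusted p under 0.05, against 13.9%. An unadjusted p under 0.05 was found for 4, a count without a share of all genes beside it. The groups did not overlap in 2 of the 9, against 20.6% of all genes. The median log2 difference of the 9 genes was 0.08 and that of all genes -0.02.

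Hspe1, the co-chaperonin of Hspd1 in mitochondria, was at 45.1, 41.5, 38.0 and 44.0 FPKM in CabZ Het and 28.9, 28.1, 36.3 and 30.8 FPKM in CabZ KO oocytes. The KO libraries were all lower (log2 difference -0.43 ± 0.11, limma adjusted p = 0.029), but 6 of the 8 fits that left out a single library gave an adjusted p between 0.055 and 0.095, as did the fit with the replicate number as a block (0.086). Its partner Hspd1 was at 2.61 to 4.72 FPKM in CabZ Het and 3.12 to 4.18 FPKM in CabZ KO, with overlap (-0.14 ± 0.16, limma adjusted p = 0.62).

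Hspa8 was at 89.4, 67.2, 109 and 96.2 FPKM in CabZ Het and 115, 125, 122 and 122 FPKM in CabZ KO oocytes, again without overlap, and its log2 difference of 0.44 ± 0.14 had a limma adjusted p = 0.072. Hsp90ab1 was at 30.5, 20.4, 36.6 and 30.5 FPKM in CabZ Het and 41.0, 62.9, 40.1 and 35.7 FPKM in CabZ KO. The lowest KO library was under the highest control, and the difference of 0.59 ± 0.21 had a limma adjusted p = 0.098. Hsp90aa1 was at 152, 107, 163 and 152 FPKM in CabZ Het and 114, 166, 172 and 156 FPKM in CabZ KO, with full overlap (0.08 ± 0.17, limma adjusted p = 0.80). The ratio of Hsp90aa1 to Hsp90ab1 was 7.48 to 8.81 in CabZ Het and 4.43 to 7.36 in CabZ KO, without overlap (exact permutation p = 0.0286, adjusted p = 0.0857).

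**Figure D4:**
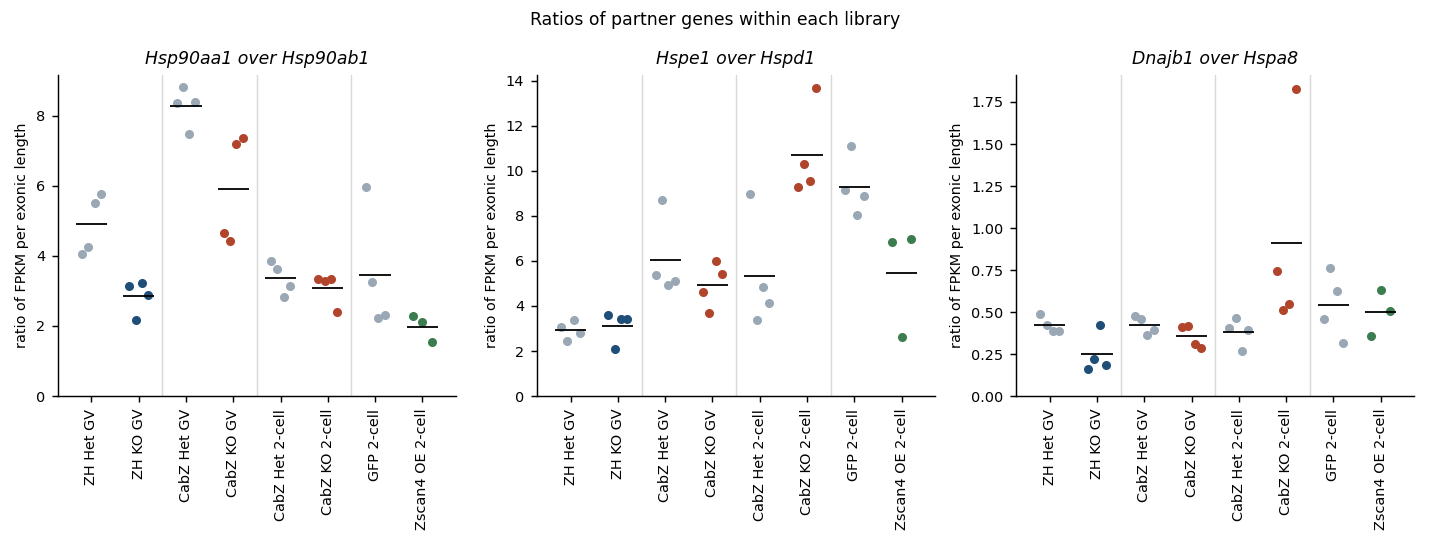
Ratio of FPKM per exonic length within each library for Hsp90aa1 over Hsp90ab1, Hspe1 over Hspd1 and Dnajb1 over Hspa8, by group. Hsp90aa1 over Hsp90ab1 is lower in every KO oocyte library than in every Het oocyte library of both ZH (2.16 to 3.22 against 4.04 to 5.76) and CabZ (4.43 to 7.36 against 7.48 to 8.81).

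Of the other genes in CabZ oocytes, Hsph1 had a log2 difference of 0.41 ± 0.17 (limma adjusted p = 0.15), Dnajb1 of 0.18 ± 0.15, Hsf1 of -0.07 ± 0.16 and Hspa1b of -0.13 ± 0.20. Their groups overlapped. Hspa1a, with 0 to 15 reads in CabZ Het and 1 to 20 in CabZ KO libraries, was outside the fit and did not separate the groups (0.142 against 0.333 FPKM, exact permutation p = 0.257). Among the partner lists Hspb1 was the only gene called, falling from 4.27 to 0.962 FPKM (-1.40 ± 0.18, limma adjusted p = 0.0012), and the co-chaperone Sugt1 (0.54), Chordc1 (-0.40), the small heat shock protein Hspb6 (-0.77) and the heat shock factor Hsf5 (0.32) had an adjusted p under 0.05. Of the 4 other HSP70 and HSP110, 18 J-domain, 13 chaperonin and prefoldin, 14 endoplasmic reticulum and 6 mitochondrial folding genes tested, limma gave none an adjusted p under 0.05. Over all 76 partner genes 9 had an unadjusted p under 0.05, again without a share of all genes. Granulosa and cumulus markers summed to 0.744 to 1.20 FPKM in CabZ Het and 1.01 to 1.45 FPKM in CabZ KO, and 2-cell stage markers to 139 to 155 and 232 to 300 FPKM, and their part in these values was not tested.

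ATAC-seq of CabZ oocytes gave a reading of the start sites that is independent of the RNA. Peaks, regions with more transposase cuts than the background of the library, had been called in each library separately, and their number ranged from 43399 to 111327 in CabZ Het and from 19160 to 46070 in CabZ KO. A peak reached to within 500 bp of the start site of 1, 3 and 5 of the 10 genes in CabZ Het libraries A, B and C. In CabZ KO libraries A, B and C it did so for 4, 0 and 2 genes. Over 6296 tested genes the shares were 13.3%, 28.0%, 48.2%, 23.0%, 7.74% and 10.1% in the same order. Of the 10 genes, 1 had a peak in every CabZ Het library (7.56% of all genes) and 0 in every CabZ KO library (2.08%), and no test was made because the number of peaks called differs between libraries. Dnajb1 was that gene, with a fold enrichment of 5.51, 5.82 and 5.86 in CabZ Het A, B and C, summits 35, 45 and 97 bp upstream of its start site, and no peak in a CabZ KO library. When peaks were held to a -log10 q of at least 5, the peak of Het library A, at 4.77, was lost.

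Hsph1 had peaks in CabZ Het B and C (fold enrichment 4.36 and 5.86) and in CabZ KO A and C (6.56 and 3.94). Hsf1 had peaks in CabZ Het C (6.74) and CabZ KO A and C (7.96 and 3.44), Hsp90aa1 in CabZ Het B and C (4 and 5.28) and CabZ KO A (6.09), and Hsp90ab1 in CabZ Het C (4.69) and CabZ KO A (4.21). The 3 Hsp90aa1 summits lay 643, 1128 and 1077 bp upstream of its start site, so only the edges of these peaks came within 500 bp. Peaks at these 4 genes were thus seen in both groups. No peak was called in any library at Hspa1a, Hspa1b, Hspa8, Hspd1 or Hspe1, although Hspa8 and Hspe1 were among the most abundant of the 10 messages in these oocytes. A start site with no called peak may still have been cut below the caller's threshold.

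**Figure D5:**
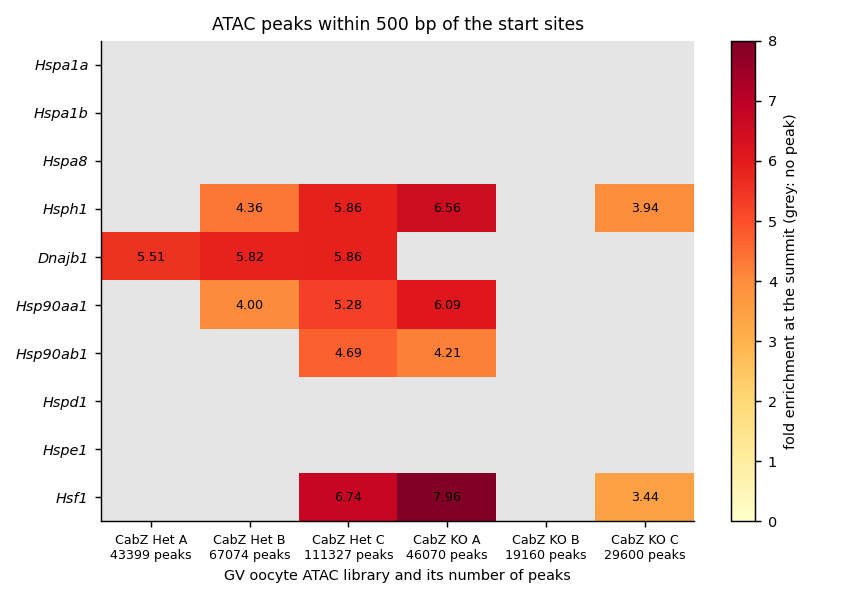
Fold enrichment, at its summit, of the ATAC-seq peak that reached to within 500 bp of the start site of each of the 10 genes. Columns are the 3 CabZ Het and 3 CabZ KO oocyte libraries, with empty cells where no peak was called. Dnajb1 has a value in all 3 CabZ Het libraries (5.51 to 5.86) and in no CabZ KO library, and 5 genes are empty throughout.

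In CabZ 2-cell embryos Hsph1 fell to 0.294 of its control level and was called lower. Hspe1 was 1.72 times as high in CabZ KO as in CabZ Het, past the adjusted p but under the fold of 2. The 1 called gene of 10 tested stands beside 37.4% of 7798 genes called, and the 2 genes with an adjusted p under 0.05 stand beside 56.1%. The groups did not overlap in 2 of the 10 genes, against 51.0% of all genes. The median log2 difference was -0.32 for the 10 genes and -0.11 for all genes.

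Hsph1, the HSP110 partner of HSP70, was at 3.51, 2.76, 2.88 and 2.78 FPKM in CabZ Het and 1.46, 1.07, 0.701 and 0.272 FPKM in CabZ KO embryos, on 484 to 617 and 35 to 189 reads. Every KO library was below every control (log2 difference -1.12 ± 0.22, limma adjusted p = 0.0024). Without CabZ KO replicate 4, the lowest, the difference was -0.95 (adjusted p = 0.0042), and with the libraries set to a common median, which moved all differences by 0.240, it was -0.88 (adjusted p = 0.0074), so that in both cases it no longer passed a fold of 2. Hspe1 was at 47.2, 30.9, 35.9 and 45.7 FPKM in CabZ Het and 68.9, 53.9, 68.8 and 83.7 FPKM in CabZ KO embryos. All KO libraries were above all controls (log2 difference 0.77 ± 0.21, limma adjusted p = 0.011), and under the common median the difference was 1.01 (adjusted p = 0.0065) and passed the fold of 2. Its partner Hspd1 went the other way in the means, from 4.50 ± 1.35 to 3.55 ± 0.557 FPKM, with overlap (-0.25 ± 0.22, limma adjusted p = 0.36), and the ratio of Hspe1 to Hspd1 was 3.37 to 8.97 in CabZ Het and 9.27 to 13.7 in CabZ KO (exact permutation p = 0.0286, adjusted p = 0.0857).

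For Hspa8, Hsp90aa1 and Hsp90ab1 the means were lower in CabZ KO embryos without passing the test. Hspa8 was at 15.4, 14.6, 18.0 and 15.6 FPKM in CabZ Het and 12.2, 10.1, 15.6 and 5.70 FPKM in CabZ KO (-0.58 ± 0.27, limma adjusted p = 0.093). Hsp90aa1 was at 39.5, 41.4, 31.6 and 28.1 FPKM in CabZ Het and 31.3, 20.6, 27.0 and 18.6 FPKM in CabZ KO (-0.52 ± 0.22, limma adjusted p = 0.068). Hsp90ab1 was at 17.3, 19.2, 18.7 and 15.1 FPKM in CabZ Het and 15.8, 10.5, 13.6 and 13.0 FPKM in CabZ KO (-0.39 ± 0.18, limma adjusted p = 0.087). In each of these 3 genes the groups overlapped. Dnajb1 was at 9.53, 10.3, 7.42 and 9.25 FPKM in CabZ Het and 13.9, 7.94, 12.9 and 15.8 FPKM in CabZ KO, with 3 of 4 KO libraries above the highest control (0.40 ± 0.23, limma adjusted p = 0.16). The ratio of Dnajb1 to Hspa8 was 0.271 to 0.462 in CabZ Het and 0.515 to 1.83 in CabZ KO, without overlap (exact permutation p = 0.0286, adjusted p = 0.0857).

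The inducible pair did not separate CabZ KO from CabZ Het embryos. Hspa1a had a log2 difference of 0.05 ± 0.27 (95% interval -0.56 to 0.65, limma adjusted p = 0.89). Hspa1b, at 2.09, 1.38, 0.315 and 1.23 FPKM in CabZ KO against 1.51, 4.58, 1.48 and 1.99 FPKM in CabZ Het, had one of -0.57 ± 0.33 (-1.32 to 0.19, adjusted p = 0.18). Hsf1, at 1.66 to 2.68 FPKM in CabZ Het and 2.05 to 2.77 FPKM in CabZ KO, had one of 0.15 ± 0.18 (adjusted p = 0.48). All 3 genes overlapped between the groups.

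Over the 77 genes tested in the 10 partner lists, 53 had a limma adjusted p under 0.05 in CabZ KO embryos, against 56.1% of all genes. Several co-chaperones that work with these proteins were lower in the CabZ KO embryos. Of 16 nucleotide exchange factors and HSP90 co-chaperones tested, 8 were called lower and 0 higher, where 20.4% of all genes were called lower and 16.9% higher. They were the cyclophilin Ppid (7.69 to 1.29 FPKM, -1.93 ± 0.21), the HSP70 nucleotide exchange factor Bag1 (12.8 to 2.89 FPKM, -1.85 ± 0.26), the immunophilin Fkbp4 (-1.59), Sugt1 (-1.38), Cacybp (-1.36), the adaptor Stip1 (6.80 to 2.15 FPKM, -1.33 ± 0.23), the mitochondrial exchange factor Grpel1 (-1.31) and the ubiquitin ligase Stub1 (-1.06), and with the libraries set to a common median 7 were called. On the values as deposited, which divide by the gene span once more and leave 5 of the list above the filter, 0 were called. Of 12 cytosolic chaperonin and prefoldin genes 3 were called lower, the chaperonin subunits Tcp1 (-1.58) and Cct8 (-1.25) and the prefoldin subunit Pfdn6 (-1.91), and of 7 mitochondrial folding genes 4, the protease Clpp (-2.18), its unfoldase Clpx (-1.38), the protease Yme1l1 (-1.04) and Grpel1. Of 21 J-domain genes 5 were called lower, Dnajb9 (243 to 90.2 FPKM, -1.46 ± 0.27), Dnajc12 (-1.69), Dnajb14 (-1.63), Dnajc30 (-1.23) and Dnajc15 (-1.22), and Dnajc14 was called higher (1.60). Under the common median 3 J-domain genes were called lower and 2 higher, and on the deposited values, which leave 4 above the filter, 0 were called lower and 1 higher. Hspa4, an HSP110 protein like Hsph1, and Hspa14 fell by 1.22 and 1.10 in a list of 5, and neither passed a fold of 2 under the common median.

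In the endoplasmic reticulum list of 14, 3 genes were called lower and 1 higher, where 20.4% and 16.9% of all genes were. Dnajb9, Sdf2l1 (-1.18) and the disulfide isomerase Pdia3 (-1.08) were lower and Pdia6 (1.02) was higher. Pdia6, at 0.790 FPKM in CabZ Het and 2.70 FPKM in CabZ KO, passed the filter only through CabZ KO, and its groups overlapped. Hsp90b1 was at 9.22 and 14.7 FPKM (0.63 ± 0.17, limma adjusted p = 0.010). Hsbp1, which binds heat shock factors, rose from 87.4 to 279 FPKM (1.71 ± 0.23, limma adjusted p = 0.00042), and of 3 small heat shock proteins tested Hspb3 was called higher (1.67) and Hspb1 lower (-1.60). Hspb3, at 0.362 FPKM in CabZ Het and 3.52 FPKM in CabZ KO, passed the filter only through CabZ KO. Of 12 genes that somatic cells induce on heat shock, 5 were called lower and 0 higher, where 20.4% and 16.9% of all genes were. All 5 are named above in other lists. Under the common median the calls were 1 lower and 1 higher in the endoplasmic reticulum list, 3 lower of the mitochondrial and 4 lower of the somatic heat shock genes, and on the deposited values no gene of these 3 lists was called. Of 11 oocyte markers 7 were called higher in the same embryos, against 16.9% of all genes, with a median log2 difference of 1.58. Granulosa and cumulus markers summed to 2.88 to 5.09 FPKM in CabZ Het and 5.74 to 12.1 FPKM in CabZ KO. Of these Vim was called higher (1.07), with overlapping groups. Markers of the 2-cell stage summed to 417 to 943 FPKM in CabZ Het and 593 to 1490 FPKM in CabZ KO, with 3 of 13 called higher and 1 lower. Mitochondrially encoded genes took 8.99% to 12.9% of the reads in CabZ Het and 2.48% to 5.09% in CabZ KO. With those genes left out of the library totals, a choice made after seeing the data, Hsph1 was at -1.22 (limma adjusted p = 0.0019) and Hspe1 at 0.68 (adjusted p = 0.022). The part of the oocyte, granulosa and cumulus, and 2-cell stage markers in these results was not tested.

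In the embryos labelled Zscan4 OE no member passed the test. Of 7 genes above 1 FPKM, 0 were called, against 1.44% of 4293 genes (limma), and 0 had an adjusted p under 0.05, against 1.79%. An unadjusted p under 0.05 was found for 3 of the 7, also without a share of all genes. The median log2 difference was 0.41 for the 7 genes and 0.03 for all genes. Hsf1 was at 0.821, 0.982, 1.08 and 0.670 FPKM in GFP embryos and 1.32, 2.41 and 1.56 FPKM in the libraries labelled Zscan4 OE. These groups did not overlap, as for 18.2% of all genes, and the log2 difference of 0.54 ± 0.18 had a limma adjusted p = 0.15.

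Hsp90ab1 was at 9.19, 12, 21.1 and 17.7 FPKM in GFP embryos and 17.6, 37.8 and 23.8 FPKM in the libraries labelled Zscan4 OE (0.77 ± 0.32, limma adjusted p = 0.24). Hspe1 was at 55.4, 71.9, 65.1 and 70.6 FPKM and 55.6, 30.4 and 54.5 FPKM (-0.52 ± 0.23, adjusted p = 0.25), and its ratio to Hspd1 was 8.02 to 11.1 in GFP embryos and 2.61 to 6.99 in the others (exact permutation p = 0.0571, adjusted p = 0.137). With 4 against 3 libraries 0.0571 is the smallest p that the exact test allows. Replicate B of Zscan4 OE was at an extreme of its group in several genes, the highest for Hsp90aa1 at 47.1 FPKM against 23.8 and 21.8 FPKM and the lowest for Hspe1, and without it the log2 difference was 0.49 for Hsp90ab1 and 0.37 for Hsf1. Hspa8, Dnajb1, Hspd1 and Hsp90aa1 had log2 differences of 0.49 ± 0.24, 0.41 ± 0.30, 0.29 ± 0.18 and 0.11 ± 0.27, with overlapping groups.

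The inducible genes were under the filter in these parthenogenetic embryos. Hspa1a was at 0.135, 0.220, 0.172 and 0.309 FPKM in GFP embryos and 0.135, 0.0345 and 0.0858 FPKM in the libraries labelled Zscan4 OE, on 2 to 14 reads in all. Its highest Zscan4 OE library lay just below its lowest GFP library (exact permutation p = 0.0571). Hspa1b (0.224 against 0.366 FPKM, p = 0.286, exact permutation) and Hsph1 (0.264 against 0.566 FPKM, p = 0.114, exact permutation) overlapped. Of 52 genes tested in the 10 partner lists, limma gave 0 an adjusted p and 7 an unadjusted p under 0.05, the latter without a share of all genes. The 2-cell stage markers summed to 636 to 965 FPKM in GFP embryos and 304 to 641 FPKM in the others, with their part in these values not tested.

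Across the 4 comparisons no single direction held for the set. Hsp90ab1 had log2 differences of 0.82, 0.59, -0.39 and 0.77 in ZH oocytes, CabZ oocytes, CabZ 2-cell embryos and embryos labelled Zscan4 OE, Hspa8 had 0.52, 0.44, -0.58 and 0.49, and Hspe1 had 0.19, -0.43, 0.77 and -0.52. Hsf1 had -0.77, -0.07, 0.15 and 0.54. The 4 tables were normalised apart and had their own controls, and differences between comparisons were not tested.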

How the data were processed

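RNA-seq libraries were made with Smart-seq2 and Nextera XT and sequenced in pairs of 150 bases. The authors trimmed reads with TrimGalore, aligned them with STAR (2.5.3a in the submitters' processing notes) and deposited gene tables made in Partek Flow. The ZH and Zscan4 tables deposited by the authors hold FPKM over the whole gene span plus a constant of 0.01 or 0.001. Both CabZ tables deposited by the authors hold a score. From the steps of its low values it was taken here as reads divided by the span 2 times, scaled to a common sum and raised by 0.01. The FPKM of CabZ were restored on that reading. For ATAC-seq, pooled oocytes were used, and the authors aligned reads with Bowtie2 2.3 and called peaks per library with MACS2, so that the deposited peak lists give fold enrichment (a ratio), -log10 p and -log10 q values and a score. The genome build was GRCm38 (mm10), and gene coordinates were those of GENCODE.

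Each table's constant was subtracted. Read numbers were recovered from the steps of low values, of which 81.4% to 89.4% per library lay within 0.1 of a whole number, so depths are approximate, and intervals on reads cover counting error only. Within each table, genes averaging 1 FPKM or more entered a fit with limma 3.58.1 (R 4.3.3) on log2(FPKM + 1), a scale that understates changes of low genes, with Benjamini-Hochberg adjustment over all genes. For single values and ratios an exact permutation test was used, two-sided (scipy 1.17.1) and unadjusted for genes under the filter. Scripts were tested on simulated data. The 10 genes and all lists were chosen with earlier results of these data known. All 10 genes are named; of the other lists, called genes are named, and where fewer than 3 were called, up to 3 with the smallest adjusted p under 0.05. Alternatives covered the pseudocount, the filter, scaling, the fold change, the thresholds, variance shrinkage, a replicate block and leaving out each library.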

Additional observations from a re-analysis of the deposited data

Results flagged for a closer look

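In 4 of 70 sets of 4 libraries (1 gene in 1 group) a single library stood apart from the other 3 by Dixon's criterion at the 95% level, about the rate that chance gives. Hspa1b was at 1.89 FPKM in ZH KO oocyte replicate 2 and at 0.487 to 0.576 FPKM in the others. Hspa1a was at 2.29 FPKM in CabZ KO 2-cell replicate 1 and at 0.577 to 0.768 FPKM in the others. Hspa1b was at 4.58 FPKM in CabZ Het 2-cell replicate 2 and at 1.48 to 1.99 FPKM in the others. Hsph1 was at 3.51 FPKM in CabZ Het 2-cell replicate 1 and at 2.76 to 2.88 FPKM in the others.

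Hspe1 moved in opposite directions on loss of maternal Cabin1 at the 2 stages. The difference KO minus Het was -11.1 FPKM in GV oocytes (from 42.2 to 31.0 FPKM), with all 4 KO libraries below the controls, and 28.9 FPKM in 2-cell embryos (from 39.9 to 68.8 FPKM), with all 4 KO libraries above them. The tables were normalised apart, and the difference between the stages was not tested.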

How the results depend on the processing

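The number of members called was 0 in ZH and became 1 with a pseudocount of 0.1 (Hsf1, -1.08) or with the fold change as a ratio of means (Hsf1, -1.03), and 3 without a fold change threshold. In CabZ oocytes it was 0 and became 1 without that threshold. In CabZ 2-cell embryos it was 1 and became 0 with a filter of 5 FPKM, which removes Hsph1, 2 without the fold threshold, and 0 to 1 on leaving out single libraries, 0 being without CabZ KO replicate 4. Under the common median the 1 call was Hspe1, not Hsph1, and so it was on the values as deposited (Hspe1 at 1.33), where 5 members were tested, all 5 were higher and their median was 0.16 in place of -0.32. In Zscan4 OE it was 0 under all alternatives. For ATAC-seq the members with a peak in every library were 0 at a -log10 q of at least 5 and 1 to 3 on leaving out single CabZ Het libraries (3 without A), and 0 to 2 on leaving out single CabZ KO libraries (2 without B). Of 563 values of 34 single results under alternatives, 552 stayed on their side of the threshold. A call was gained in 9, lost in 2 (Hsph1) and reversed in 0. These counts do not cover changes of sign in results that were not called. In ZH oocytes 6 members were higher and 2 lower as first fitted, but 3 were higher and 5 lower under the common median.

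The replicate block left 0, 0, 1 and 0 members called. Same-numbered libraries correlated between -0.449 and 0.495, so the numbers were not taken as pairs, and in Zscan4 OE the calls over all genes fell from 62 to 2 with the block.

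Over all genes, 1023 calls in ZH became 1645 with a pseudocount of 0.1, 1677 with the ratio of means, 578 with a filter of 5 FPKM and 3006 without a fold threshold. The 184 calls in CabZ oocytes became 328, 354, 109 and 883. The 2914 calls in CabZ 2-cell embryos became 1650 with a filter of 5 FPKM, 4376 without a fold threshold and 1496 on the values as deposited. In Zscan4 OE 62 became 5 without a filter and 18 to 100 on leaving out single libraries. The share called higher moved from 59.2% to 42.9% (common median) and 72.0% (scaled to the reads of the table) in ZH, and from 45.3% to 60.9% (common median) and 75.1% (as deposited) in CabZ 2-cell embryos. The causes were not tested.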
